A study of Rattus norvegicus with 64 samples.

Results

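Cirbp (ENSRNOG00000015999) and Rbm3 (ENSRNOG00000005387), the genes of the cold-inducible RNA-binding proteins CIRBP and RBM3, were followed in rat blood across saline and amphetamine (AMPH) groups kept at different temperatures. They were taken by symbol and are 2 genes of the 26405 listed in any rat's counts. Both are listed for all 64 rats. Whole blood was drawn by cardiac puncture from male Sprague-Dawley rats 85 to 90 days old, 3 h after the last of 4 injections given 2 h apart, and was depleted of globin RNA before strand-specific sequencing of polyadenylated RNA. Each library is 1 rat. Saline was given at 22.5 °C (6 rats), at 16 °C (5 rats) or in a 39 °C environment (16 rats, labelled hyperthermic), and D-amphetamine at 22.5 °C (22 rats, labelled hyperthermic) or at 16 °C (15 rats, labelled normothermic). By the study's methods, AMPH rats that overheated were cooled on ice, so the AMPH group at 22.5 °C holds rats with unequal temperature histories, which the labels do not give rat by rat. Rats with over 5000 counts of the muscle gene Mb were left out here, which left 59 of 64 rats. These were 4 saline at 22.5 °C, 5 saline at 16 °C, 15 saline at 39 °C, 13 AMPH at 16 °C and 22 AMPH at 22.5 °C.

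CIRBP and RBM3 are small glycine-rich proteins with an RNA recognition motif. Their transcripts and proteins accumulate when mammalian cells are cooled mildly below body temperature, and decline when cells are warmed, the opposite of the heat shock chaperones. Both bind other transcripts and influence their stability, polyadenylation and translation, RBM3 is known for protecting neurons during cooling, and CIRBP released from cells into the blood acts as an inflammatory signal through Toll-like receptor 4.

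The upstream sequence of both genes is shown because an octamer in the Cirbp promoter, TCCCCGCC, is known as the mild cold response element and is bound by the transcription factor Sp1. The 250 bases before each start site come from RefSeq on build GRCr8, printed 5′ to 3′ on the strand of the gene. Cirbp lies at chr7:10189476-10189725 on the minus strand and Rbm3 at chrX:17020655-17020904 on the plus strand. Capitals mark the octamer and the GC box GGGCGG (or CCGCCC on the other strand), and the first capital run of Cirbp holds both, overlapping.
Cirbp: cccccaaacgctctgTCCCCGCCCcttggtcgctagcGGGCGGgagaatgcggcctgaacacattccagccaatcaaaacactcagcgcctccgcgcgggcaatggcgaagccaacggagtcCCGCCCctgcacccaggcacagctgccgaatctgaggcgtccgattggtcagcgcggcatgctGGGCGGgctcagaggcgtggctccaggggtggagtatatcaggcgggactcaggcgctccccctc
Rbm3: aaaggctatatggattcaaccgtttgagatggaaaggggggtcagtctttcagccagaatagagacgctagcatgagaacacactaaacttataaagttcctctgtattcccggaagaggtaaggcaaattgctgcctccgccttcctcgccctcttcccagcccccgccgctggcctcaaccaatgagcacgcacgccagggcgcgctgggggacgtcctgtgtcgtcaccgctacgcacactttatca

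The octamer TCCCCGCC (GGCGGGGA on the other strand) was found in the Cirbp window, from position −235 to position −228 relative to the start site, and not in the Rbm3 window. It was present in 4.22% of the 33469 rat promoter windows of the same length. The GC box was found 4 times in the Cirbp window and not in that of Rbm3, against 30.5% of all windows with at least 1. The heat shock element core GAANNTTC, which reads alike on both strands, was found in neither window and in 7.23% of all windows. G and C made up 67.2% of the Cirbp window and 54.8% of the Rbm3 window, against a median of 51.2%. These are matches of letters and not tested sites.

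By group median, Cirbp and Rbm3 were lower in the blood of the groups labelled hyperthermic than in the others, although single rats overlapped. In the main edgeR fits given below, the differences passed an adjusted p of 0.05 only against AMPH at 16 °C. Levels are given as CPM, counts scaled to the size of the library, with library sizes set by TMM from the bulk of genes. They are not divided by transcript length, so the level of Cirbp is not compared with that of Rbm3. In the 4 saline rats at 22.5 °C Cirbp stood at 29.5, 16.9, 19.5 and 22.0 CPM, and Rbm3 at 113, 72.5, 82.1 and 82.2 CPM. In the 5 saline rats at 16 °C Cirbp stood at 15.6, 15.4, 11.3, 15.7 and 19.4 CPM, and Rbm3 at 75.4, 52.7, 80.8, 81.2 and 86.1 CPM. For both genes these groups overlapped, although 4 of the 5 rats at 16 °C had less Cirbp than every rat at 22.5 °C.

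In the 15 saline rats at 39 °C Cirbp ranged from 2.23 to 24.8 CPM with a median of 5.46, and Rbm3 from 14.8 to 94.4 CPM with a median of 36.4. In the 13 AMPH rats at 16 °C Cirbp ranged from 7.40 to 32.2 CPM with a median of 20.9, and Rbm3 from 50.6 to 148 CPM with a median of 90.5. In the 22 AMPH rats at 22.5 °C Cirbp ranged from 2.64 to 22.8 CPM with a median of 7.18, and Rbm3 from 23.9 to 112 CPM with a median of 36.8. By median, both genes followed the order AMPH at 16 °C, saline at 22.5 °C, saline at 16 °C, AMPH at 22.5 °C and saline at 39 °C. The highest 3 groups overlapped one another for both genes, and so did the lowest 2. Of the 15 saline rats at 39 °C, 14 had less Cirbp and 13 had less Rbm3 than every saline rat at 22.5 °C. Of the 22 AMPH rats at 22.5 °C, 21 had less Cirbp and 18 had less Rbm3 than every saline rat at 22.5 °C. These counts set aside the sequencing project, which the comparisons that follow take into account.

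**Figure D1:**
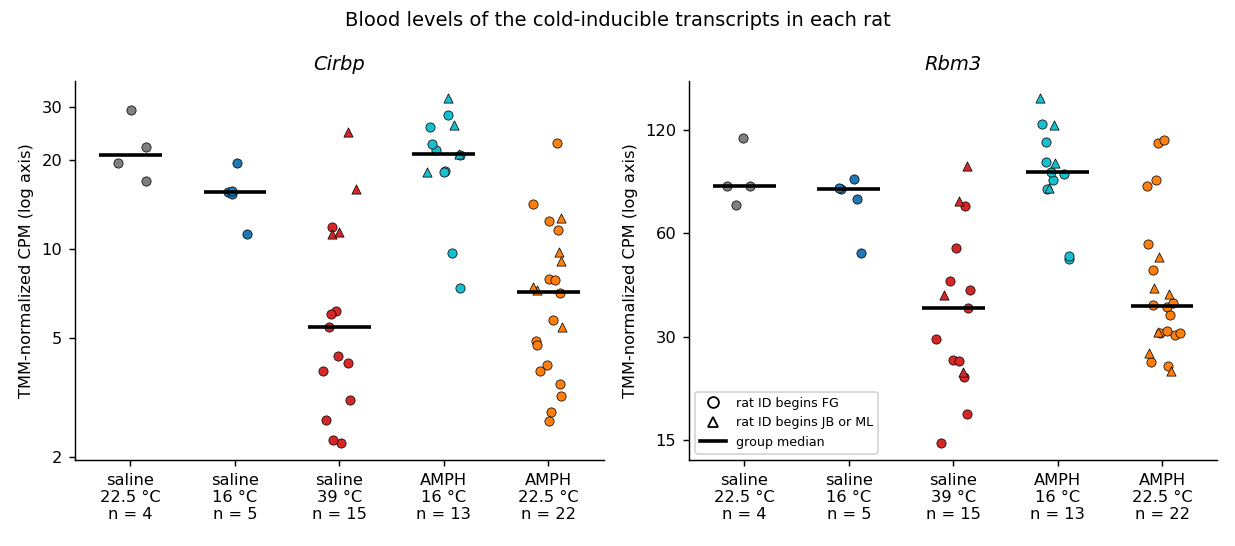
Blood levels of Cirbp and Rbm3 in each of the 59 rats, as TMM-normalized CPM on a log axis, by group, with a bar at the group median and the marker giving the letters that open the rat's ID. The medians of saline at 39 °C and AMPH at 22.5 °C (5.46 and 7.18 CPM for Cirbp, 36.4 and 36.8 CPM for Rbm3) lie below those of the other 3 groups.

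On a ratio or log2 scale, the spread between rats was wider in the groups labelled hyperthermic than in the others. In CPM the SD was highest in AMPH at 16 °C, at 6.85 for Cirbp and 27.5 for Rbm3, against 6.30 and 23.3 in saline at 39 °C and 4.77 and 26.5 in AMPH at 22.5 °C. The highest saline rat at 39 °C had 11.1 times the Cirbp of the lowest, and the highest AMPH rat at 22.5 °C had 8.65 times, against 1.74 times among the saline rats at 22.5 °C and 1.73 times among those at 16 °C. For Rbm3 the same ratios were 6.39 and 4.68 times, against 1.56 and 1.64 times. Group size differs and widens the range of the larger groups, so the standard deviation of log2 CPM is given as well: for Cirbp it was 1.07 and 0.82 in the groups labelled hyperthermic, and 0.34 and 0.28 in the saline rats at 22.5 and 16 °C. For Rbm3 it was 0.78 and 0.67, against 0.28 and 0.28. Among the AMPH rats at 16 °C it was 0.59 for Cirbp and 0.45 for Rbm3.

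The total of counts per rat ran from 19055610 to 40530330, with a median of 27542456.5. Cirbp itself had between 24 and 1496 counts in a kept rat and Rbm3 between 271 and 6327, so that the lowest Cirbp values rest on few counts. By the code that opens each file's name the libraries fall into 14 projects, which are taken here as sequencing batches although the labels do not state it. The saline rats at 16 °C are all of 1 project and those at 22.5 °C of 2, and no project holds rats of both groups. Nothing says that the rats of a group came from separate litters. Blood markers were present in every group, and no group had a T cell, B cell, monocyte, neutrophil, erythroid or platelet marker at 0 in all its rats.

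The AMPH groups received the same drug at different environmental temperatures. Both genes were lower at 22.5 °C than at 16 °C. Over the 5 projects that hold both groups, Cirbp ranged from 2.84 to 12.7 CPM with a median of 7.18 in the 10 rats at 22.5 °C, and from 18.1 to 32.2 CPM with a median of 21.5 in the 9 rats at 16 °C. Rbm3 ranged from 23.9 to 51.1 CPM with a median of 31.1 at 22.5 °C, and from 51.6 to 148 CPM with a median of 90.5 at 16 °C. Among the rats of these projects every rat at 22.5 °C was below every rat at 16 °C for both genes, which held for 0.629% of the 12091 genes tested. The groups overlapped once the kept rats of all projects were counted. Then 12 of the 22 rats at 22.5 °C for Cirbp, and 16 for Rbm3, were below every rat at 16 °C. In edgeR's quasi-likelihood test with project as a covariate, Cirbp fell to 30.5% of its level at 16 °C (log2 fold change −1.72, SE 0.20, Benjamini-Hochberg adjusted p = 3.5e-05). Rbm3 fell to 36.7% (log2 fold change −1.45, SE 0.16, adjusted p = 3.1e-05). Among the genes tested, 7.96% were lower at 22.5 °C and 15.9% differed in either direction. By p-value Rbm3 was the 27th and Cirbp the 29th gene of the 12091. Over all kept rats of the groups and without project, the edgeR log2 fold change was −1.40 for Cirbp and −1.01 for Rbm3.

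Project by project, the log2 difference of the AMPH rats at 22.5 °C from those at 16 °C was between −2.26 and −0.51 for Cirbp and between −1.86 and −1.05 for Rbm3. In 5 of 5 projects every rat at 22.5 °C was below every rat at 16 °C, for both genes. In projects 5 and 7 all rats at 22.5 °C had IDs beginning JB or ML and all at 16 °C had FG. There the ID letters and the group cannot be told apart. In project 4, which held the most rats of these groups, Cirbp ran from 2.84 to 7.10 CPM in 4 rats at 22.5 °C against 20.7 and 21.5 CPM in 2 rats at 16 °C. The smallest Cirbp difference was in project 14, with 12.7 CPM in 1 rat against 18.1 CPM in 1 rat, where Rbm3 was 26.9 against 95.8 CPM. An exact two-sided permutation test of the difference, with labels permuted within projects, gave p = 0.00028 for Cirbp and p = 0.00028 for Rbm3, the smallest p that the 3600 arrangements allow. It was 1 of 8 such tests, which were not adjusted. In the 4 rats at 22.5 °C and 2 at 16 °C with IDs that begin FG, the adjusted p by the same edgeR test was 0.077 for Cirbp (log2 fold change −2.17) and 0.13 for Rbm3 (−1.19), and no gene was called there.

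**Figure D2:**
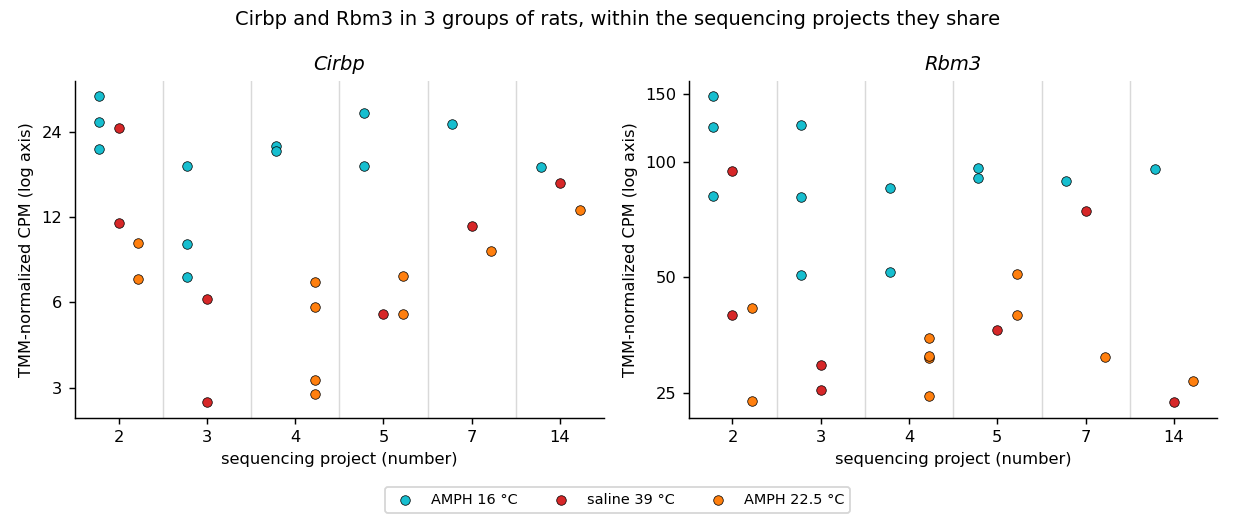
Cirbp and Rbm3 of each rat (TMM-normalized CPM, log axis) in the AMPH groups and in saline at 39 °C, split by sequencing project. In projects 2, 4, 5, 7 and 14 all AMPH rats at 22.5 °C lie below all AMPH rats at 16 °C for both genes, while the saline rats at 39 °C reach the AMPH rats at 16 °C in project 2.

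Saline at 39 °C was set against AMPH at 16 °C, the groups that differ in both drug and environment, and again both genes were lower in the warm group. Over 5 shared projects, Cirbp ranged from 2.66 to 24.8 CPM with a median of 11.2 in the 7 saline rats, and from 7.40 to 32.2 CPM with a median of 19.6 in the 10 AMPH rats. Rbm3 ranged from 23.6 to 94.4 CPM with a median of 36.4, against 50.6 to 148 CPM with a median of 93.2. The groups overlapped for both genes. Cirbp stood at 48.3% of its AMPH level (log2 fold change −1.05, SE 0.28, edgeR adjusted p = 0.023) and Rbm3 at 43.1% (−1.21, SE 0.25, adjusted p = 0.0051). Of 12096 genes tested, 5.59% were lower in the saline rats at 39 °C and 12.5% differed in either direction. In 4 of 5 projects every saline rat was below every AMPH rat for both genes. Of these, projects 7 and 14 held 1 rat of each group and project 5 held 1 saline and 2 AMPH rats. The share of all genes with this pattern was not computed. Project 3, which holds no AMPH rat at 22.5 °C, had the lowest Cirbp of the AMPH rats at 16 °C, 7.40 to 18.2 CPM in 3 rats. The exception was project 2, where the saline rats had 24.8 and 11.4 CPM of Cirbp against 20.9 to 32.2 CPM. The exact permutation p within projects was 0.0025 for Cirbp and 0.0017 for Rbm3.

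The Cirbp difference between saline at 39 °C and AMPH at 16 °C was near the threshold. With library totals in place of TMM its adjusted p was 0.26 (log2 fold change −0.98), and leaving out project 2, 3, 5 or 7 gave adjusted p of 0.059, 0.088, 0.070 and 0.054. Rbm3 passed the threshold in each of these.

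Within the saline rats at 39 °C Cirbp was higher, with some overlap, in rats whose ID opens with certain letters. The 4 rats with IDs beginning JB or ML had 11.2 to 24.8 CPM of Cirbp and the 11 with FG had 2.23 to 11.8 CPM, so that 1 FG rat was above the lowest 2 JB or ML rats. For Rbm3 these were 23.6 to 94.4 CPM and 14.8 to 72.0 CPM. In this group no project holds both JB or ML and FG rats, so ID letters and project cannot be told apart. After globin depletion, hemoglobin genes held 2.78 to 4.26% of counts in the JB or ML rats and 7.53 to 33.3% in the FG rats. Their part in the Cirbp values was not tested. The heat shock gene Hsph1 reached 638 to 4729 CPM in the JB or ML rats and 572 to 10431 CPM in the FG rats. Among AMPH rats at 22.5 °C, Cirbp ranged from 5.47 to 12.7 CPM in 6 JB or ML rats and from 2.64 to 22.8 CPM in 16 FG rats. With JB or ML rats alone, saline at 39 °C against AMPH at 16 °C gave a Cirbp log2 fold change of −0.45 (SE 0.28, adjusted p = 0.40) and an Rbm3 one of −1.16 (SE 0.39, adjusted p = 0.15). With FG rats alone they were −1.62 (SE 0.40, adjusted p = 0.090) for Cirbp and −1.52 for Rbm3, where Rbm3 passed the threshold. These fits used rats of shared projects alone: 3 saline against 4 AMPH rats for JB or ML, and 3 against 5 for FG.

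The groups labelled hyperthermic were kept in a hot environment or given the drug at 22.5 °C, and no difference in Cirbp or Rbm3 was detected between them. Over 7 shared projects, Cirbp ranged from 2.23 to 24.8 CPM with a median of 5.46 in 13 saline rats at 39 °C, and from 3.89 to 14.1 CPM with a median of 7.69 in 10 AMPH rats at 22.5 °C. Rbm3 ranged from 14.8 to 94.4 CPM with a median of 39.8, against 23.9 to 110 CPM with a median of 38.3. The log2 fold change was −0.0077 for Cirbp (SE 0.28, edgeR adjusted p = 0.99) and −0.012 for Rbm3 (SE 0.34, adjusted p = 0.99). Of 12055 genes, 0.116% were lower in saline at 39 °C and 0.133% differed in either direction. The exact permutation p was 0.90 for Cirbp and 0.98 for Rbm3. Single projects went both ways: for Cirbp the saline rats at 39 °C were lower on average in 3 of 7 projects, and for Rbm3 in 4 of 7.

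At 22.5 °C, AMPH was set against saline. Within the shared projects 8 and 9, the 7 AMPH rats had 2.64 to 22.8 CPM of Cirbp with a median of 4.90, and 25.4 to 112 CPM of Rbm3 with a median of 37.6. The 4 saline rats had the values given above, 16.9 to 29.5 CPM of Cirbp and 72.5 to 113 CPM of Rbm3. The groups overlapped through AMPH rats 16, 17 and 22. Rat 17 had 22.8 CPM of Cirbp and 112 CPM of Rbm3, rat 16 had 85.9 CPM of Rbm3, and rat 22 had 82.1 CPM of Rbm3 with 4.76 CPM of Cirbp. In project 9, which has 1 kept rat a group, Rbm3 was 82.1 against 82.2 CPM while Cirbp was 4.76 against 22.0 CPM. The Cirbp log2 fold change was −1.46 (SE 0.51, edgeR adjusted p = 0.27) and that of Rbm3 −0.56 (SE 0.39, adjusted p = 0.40). No gene passed the threshold in this edgeR fit (0% of 12799), where 2340 had an unadjusted p under 0.05 and DESeq2 called 347. The exact permutation test within projects gave p = 0.030 for Cirbp and p = 0.14 for Rbm3, where the smallest p that 168 arrangements allow is 0.0060. Without AMPH rat 17, which was singled out after its values were seen, the Cirbp log2 fold change was −1.89 (edgeR adjusted p = 0.043) and that of Rbm3 −0.83 (adjusted p = 0.12). In that fit 1072 of the 12663 genes tested were called, 541 higher and 531 lower. Leaving out any other rat gave no call for either gene, with edgeR adjusted p of up to 0.60 for Cirbp and 0.65 for Rbm3. Leaving out each rat in turn gave permutation p of 0.018 to 0.11 for Cirbp.

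AMPH rats 16 and 17 also stood apart from the other AMPH rats at 22.5 °C in the heat shock gene Hsph1, a chaperone of the Hsp110 family. They had 21.6 and 15.6 CPM, within or near the 13.7 to 18.9 CPM of the saline rats at 22.5 °C, while the next lowest AMPH rat had 188 CPM. Of the 22 AMPH rats, rat 17 had the most Cirbp and the most Rbm3. The AMPH rat with the most Hsph1, 6234 CPM, had 110 CPM of Rbm3. The median of Hsph1 over the AMPH rats at 22.5 °C was 1140 CPM, against 2342 CPM in saline at 39 °C and 14.3 CPM in AMPH at 16 °C.

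The remaining comparisons had few or no rats in a shared project, and were taken from 1 edgeR fit over the 5 groups with project as a covariate. Between AMPH and saline at 16 °C, Cirbp differed by a log2 fold change of 0.81 (SE 0.52, adjusted p = 0.60) and Rbm3 by 0.64 (SE 0.48, adjusted p = 0.68). No gene was called (0% of 14000), with 1499 at an unadjusted p under 0.05 and 90 called by DESeq2. Between saline at 39 and 16 °C the differences were −0.58 for Cirbp (SE 0.53, adjusted p = 0.55) and −0.69 for Rbm3 (SE 0.48, adjusted p = 0.40), where 2.64% of genes were lower at 39 °C and 8.76% differed. Between saline at 39 and 22.5 °C they were −1.34 for Cirbp (SE 0.51, adjusted p = 0.10) and −0.63 for Rbm3 (SE 0.46, adjusted p = 0.41), where 0.929% of genes were lower and 2.87% differed. Neither gene passed the threshold in these comparisons. With the T cell marker level as a covariate, Cirbp differed by −0.066 between saline at 39 and 16 °C (adjusted p = 0.96) and by −0.68 between 39 and 22.5 °C (adjusted p = 0.86), and Rbm3 by −0.85 and −0.82 (adjusted p = 0.34 and 0.81).

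Without the project in the model, saline at 39 °C against saline at 22.5 °C gave −1.54 for Cirbp (adjusted p = 0.032) and −1.12 for Rbm3 (adjusted p = 0.039). No project holds rats of both groups, so project and environment cannot be told apart in those values. Saline at 16 °C was set against saline at 22.5 °C, a cool against a standard room without drug. Cirbp differed by −0.76 (SE 0.67, adjusted p = 0.77) and Rbm3 by 0.064 (SE 0.62, adjusted p = 0.99), and 0.00714% of genes were lower at 16 °C. The sign for Rbm3 turned with library totals (−0.51) and without the project (−0.19). No rise of either gene in the cool room was detected. The difference between the drug effects at 22.5 and 16 °C, tested as an interaction, was −2.28 for Cirbp (SE 0.67, adjusted p = 0.41) and −1.22 for Rbm3 (SE 0.61, adjusted p = 0.68). Of the 14000 genes 0% were called, with 1034 at an unadjusted p under 0.05 and 52 called by DESeq2. These comparisons share groups, so their values are not independent.

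**Figure D3:**
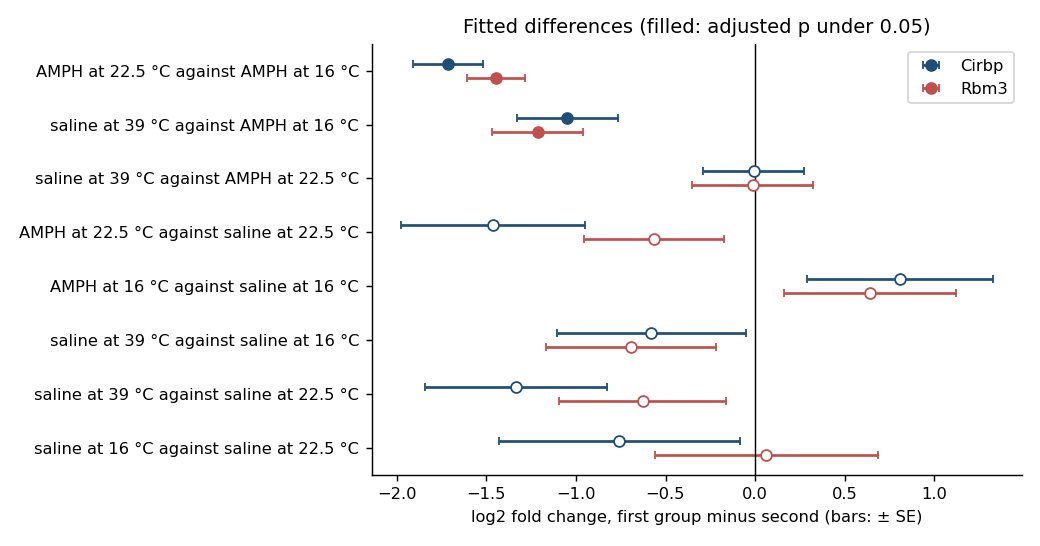
Fitted log2 fold change of Cirbp and Rbm3 in the 8 comparisons of groups, first group minus second, with bars of ± SE and filled points where the adjusted p passed 0.05. Both genes are filled only for AMPH at 22.5 °C and saline at 39 °C against AMPH at 16 °C.

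Cirbp and Rbm3 were compared with each other within the groups of at least 6 rats. Pearson's r of log2 CPM was 0.61 over 15 saline rats at 39 °C (permutation p = 0.016), 0.53 over 13 AMPH rats at 16 °C (p = 0.060) and 0.55 over 22 AMPH rats at 22.5 °C (p = 0.0074). Spearman's rho was 0.56, 0.56 and 0.49 (permutation p = 0.030, 0.051 and 0.022). After Benjamini-Hochberg adjustment over 9 relations, Pearson's p by permutation was 0.047, 0.13 and 0.035, and Spearman's 0.090, 0.12 and 0.090. Without the 2 rats farthest from the median of Cirbp, r was 0.67, 0.36 and 0.45. Within projects, r was 0.69 over 11 saline rats at 39 °C, 0.62 over 10 AMPH rats at 16 °C and 0.82 over 16 AMPH rats at 22.5 °C. AMPH rats 16 and 17, left out of the Hsph1 relation below, are included here. They had 12.4 and 22.8 CPM of Cirbp and 85.9 and 112 CPM of Rbm3, and r without both was not computed.

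Each gene was also set against Hsph1 from rat to rat, and differences between the groups in this relation were not tested. Over the saline rats at 39 °C r with Hsph1 was −0.12 for Cirbp and 0.40 for Rbm3 (permutation p = 0.67 and 0.14, adjusted 0.79 and 0.26), with rho of −0.11 and 0.38 (p = 0.69 and 0.17). Without the 2 farthest rats it was 0.18 and 0.66, and within projects over 11 rats −0.22 and 0.23. The AMPH rats at 16 °C gave −0.086 for Cirbp and −0.12 for Rbm3 (permutation p = 0.79 and 0.71, adjusted 0.79 and 0.79), with rho of −0.071 and −0.18 (p = 0.82 and 0.55). Without the 2 farthest rats these were 0.071 and −0.27, and within projects over 10 rats −0.68 and −0.74. None of these pooled relations passed the threshold.

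AMPH rats 16 and 17 form a separate cluster of low Hsph1 and were left out of the relation after their values were seen, and no r over all 22 rats is given. Their low Hsph1 goes with high Rbm3 (85.9 and 112 CPM), opposite to the direction of the Rbm3 relation among the other 20 AMPH rats at 22.5 °C. Over those 20 rats, r with Hsph1 was −0.098 for Cirbp (permutation p = 0.68, adjusted 0.79, rho −0.10 with p = 0.68). It was 0.014 without the 2 farthest rats and −0.21 within projects over 14 rats. For Rbm3 it was 0.57 (permutation p = 0.0078, adjusted 0.035, rho 0.52 with p = 0.019, adjusted 0.090) and 0.49 within projects over 14 rats. It fell to 0.29 without the 2 rats farthest from the median of Rbm3, so the relation rests on those rats.

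**Figure D4:**
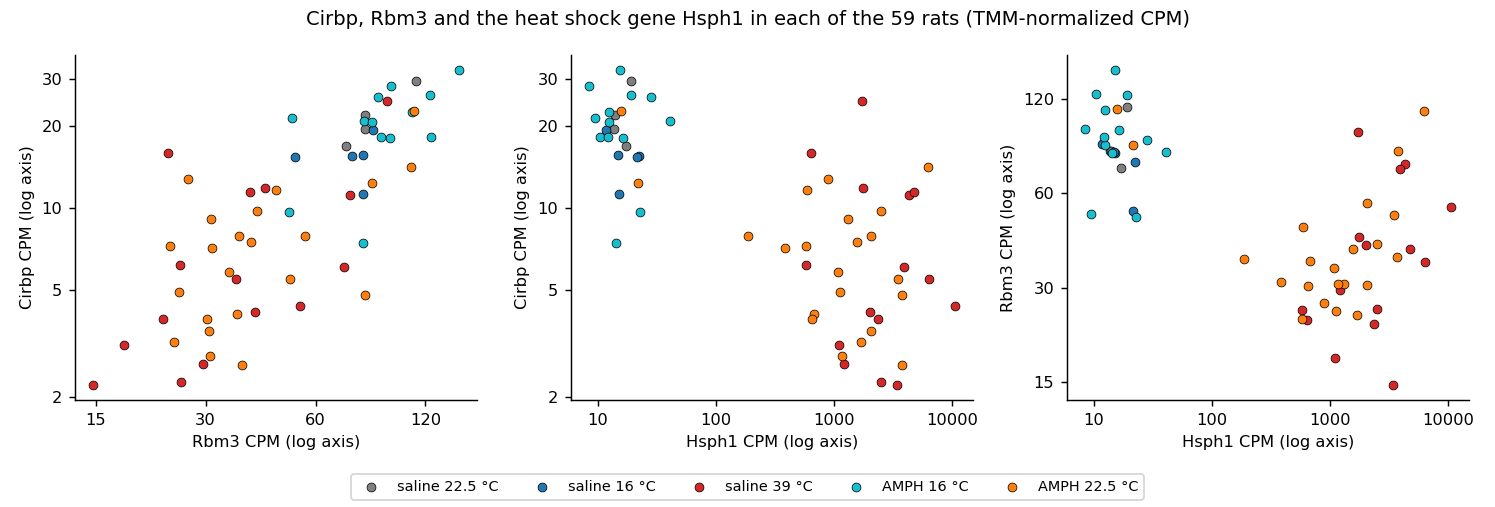
Cirbp against Rbm3, and each against the heat shock gene Hsph1, in the 59 rats (TMM-normalized CPM, log axes), with a color for each group. Rats of the saline groups at 22.5 and 16 °C and AMPH rats at 16 °C have 8.45 to 40.4 CPM of Hsph1, and so do AMPH rats 16 and 17, while the other rats have 188 CPM or more.

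After project and group were taken out of log2 CPM, the genes with the pattern most like that of Cirbp over 59 rats, among 8589 genes, were VIPAS39 (r = 0.78), Ccdc9 (0.78), Ccdc17 (0.76), Sfi1 (0.75) and Araf (0.75). VIPAS39 acts in vesicle trafficking and Araf is a Raf family kinase. For Rbm3 they were Alkbh3 (r = 0.79), Abt1 (0.74), Med29 (0.74), Ccl3 (0.72) and Alg13 (0.69). Alkbh3 is a nucleic acid demethylase, Med29 a Mediator subunit and Ccl3 a chemokine. Rbm3 was the 41st gene by likeness to Cirbp and Cirbp the 15th by likeness to Rbm3 (r = 0.64 in both). These r values are descriptions over rats that share the sequencing projects, depth and blood composition.

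The heat shock genes, which warming induces, moved the other way from Cirbp and Rbm3. In AMPH at 22.5 °C against 16 °C, 17 of 18 gene IDs tested were higher and 0 lower, with a median log2 fold change of 2.71 against 0.0073 over all genes, of which 15.9% were called. By adjusted p the leading genes were Hsph1 (log2 fold change 6.48, SE 0.45), the Hsp90 gene Hsp90aa1 (4.57, SE 0.38), the co-chaperone Stip1 (3.03, SE 0.26) and the Hsp70 partner Bag3 (3.38, SE 0.32), with edgeR adjusted p of 4.6e-07, 2.9e-06, 2.9e-06 and 6.1e-06. In saline at 39 °C against AMPH at 16 °C, 17 of 18 were higher and 0 lower, with a median of 3.14, and 12.5% of all genes were called. Between saline at 39 °C and AMPH at 22.5 °C, 0 of 18 passed, with 0.133% of all genes called. Among FG rats alone the AMPH comparison called 0 of the 18, and for AMPH against saline at 22.5 °C 0 of 18 passed in edgeR, with a median of 2.46, but no gene at all was called in either fit. Against saline at 16 °C and at 22.5 °C, the saline rats at 39 °C had 14 and 13 of the 18 higher, where 8.76% and 2.87% of all genes were called. These counts include 2 IDs of Hspa1b with identical values and 2 of Hspa8, which may share reads.

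Relatives of the pair among RNA-binding and cold-shock-domain proteins were counted next. Of 16 gene IDs tested in AMPH at 22.5 °C against 16 °C, 2 were higher and 1 lower, a share near the 15.9% of all genes called, and their median log2 fold change was −0.12. The higher ones were both IDs of Rbm14, a coactivator with RNA recognition motifs, with identical values (0.86, SE 0.19, edgeR adjusted p = 0.0051). The lower one was the splicing regulator Rbm4b (−0.44, SE 0.13, adjusted p = 0.033). With the share of hemoglobin counts as a covariate 0 of them passed, but of all 12091 genes only 155 were then called higher and 168 lower. For saline at 39 °C against AMPH at 16 °C, 2 of 17 were higher, again the IDs of Rbm14 (0.75, SE 0.22, adjusted p = 0.034), and 0 lower, where 12.5% of all genes were called. That count ranged from 0 to 6 over the alternatives. Between saline at 39 °C and AMPH at 22.5 °C 0 of 18 passed.

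Of 12 kinases and regulators linked to the splicing and induction of Cirbp and Rbm3, 1 was higher and 1 lower in AMPH at 22.5 °C against 16 °C, a share near the 15.9% of all genes called and so no result about the list. The temperature-sensitive kinase gene Clk2 rose by a log2 fold change of 0.41 (SE 0.10, edgeR adjusted p = 0.012), and the kinase gene Dyrk1b fell by 0.50 on the log2 scale (SE 0.12, adjusted p = 0.0099). Sp1, the factor named above, differed by −0.19 (SE 0.093, adjusted p = 0.19). Clk2 was also higher in saline at 39 °C against AMPH at 16 °C (0.59, SE 0.11, edgeR adjusted p = 0.0034), as was the splicing kinase gene Srpk1 (1.01, SE 0.20, adjusted p = 0.0036). In that comparison 12.5% of all genes were called, so these genes are not read as a result about the list. None of the 4 receptor genes that extracellular CIRBP acts on (Tlr4, its partner Ly96, Trem1 and Il6r) passed in either comparison, with adjusted p of at least 0.17 between the AMPH groups and of at least 0.34 in the other.

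Markers of blood cell types also differed between the AMPH groups, and their part in the Cirbp and Rbm3 values was not tested beyond the covariates given here. In AMPH at 22.5 °C against 16 °C, 3 of 7 monocyte markers were higher (Cd68, Csf1r and Cd14), 1 of 7 neutrophil markers was lower (Cxcr2), 3 of 11 erythroid markers were lower (Hba-a2, Hba2 and Slc4a1) and 1 of 7 platelet markers was higher (Ppbp), where 15.9% of all genes were called, so the neutrophil and platelet counts are near that background. Hba-a2 and Hba2 are globin genes, whose RNA was depleted before sequencing, so their counts are what remained. None of 11 T cell, 6 B cell, 5 NK cell or 5 cardiac muscle markers passed. The summed T cell markers ran from 80.6 to 675 CPM in AMPH at 22.5 °C, from 200 to 434 CPM in AMPH at 16 °C, from 76.3 to 435 CPM in saline at 39 °C, from 312 to 407 CPM in saline at 16 °C and from 441 to 659 CPM in saline at 22.5 °C. From whole-blood RNA alone, fewer cells of a type and less RNA per cell cannot be told apart. The study counted fewer lymphocytes and more monocytes in AMPH rats than in controls, and gave no counts for the 16 or 39 °C groups.

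For saline at 39 °C against AMPH at 16 °C, 3 of 7 monocyte markers (Csf1r, Cx3cr1 and Cd68) and 1 of 6 B cell markers (Cd22) were higher, 1 of 7 neutrophil markers was higher (Ngp) and 2 lower (S100a8 and S100a9), and none of the T cell, NK cell, erythroid, platelet or cardiac muscle markers passed, where 12.5% of all genes were called. With the T cell marker level as a covariate, the AMPH comparison gave −1.72 for Cirbp (edgeR adjusted p = 6.3e-05) and −1.46 for Rbm3 (adjusted p = 1.5e-05). With the hemoglobin share as a covariate it gave −2.18 (adjusted p = 0.0015) and −1.19 (adjusted p = 0.020). Saline at 39 °C against AMPH at 16 °C gave −0.95 for Cirbp (adjusted p = 0.025) and −1.33 for Rbm3 (adjusted p = 0.0024) with the T cell covariate. In AMPH against saline at 22.5 °C the T cell covariate took the Cirbp difference from −1.46 to −0.53 (SE 0.40) and that of Rbm3 from −0.56 to −0.11 (SE 0.45), where all 11 T cell markers were tested and had a median log2 fold change of −1.03. In saline at 39 °C, 3 of the 11 T cell markers (Cd8a, Cd247 and Cd5) were lower than in saline at 16 °C, where 2.64% of all genes were lower. Against saline at 22.5 °C, 2 of the 11 (Cd2 and Cd4) were lower, where 0.929% of all genes were lower.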

How the data were processed

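The submitters' processing notes name CASAVA 1.8.2, Bowtie 0.12.9, RSEM 1.2.0 and build rn5. The values deposited by the authors are RSEM expected counts per gene, not normalized, in 1 file a rat. Here they were rounded to whole numbers. The files list 6 different sets of genes, and each fit used genes listed in all its files. The sequencing project is the code that opens a file's name.

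Genes with at least 10 counts in as many rats as the smaller group were tested with edgeR 4.0.16 (TMM, quasi-likelihood) in R 4.3.3, Benjamini-Hochberg adjustment over all genes tested and a threshold of 0.05. Comparisons of groups with shared projects used those projects alone, with project as a covariate, and the other comparisons came from 1 fit over all 5 groups with project. The splits by the letters of the rat IDs were chosen after seeing the data. DESeq2 1.42.0 was an alternative. CPM, exact permutation tests within projects, correlations (100000 permutations) and figures used Python 3.11.15, numpy 2.4.6, scipy 1.17.1, pandas 2.3.3 and matplotlib 3.10.9. The fits were tested on simulated data.

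The members, gene lists (heat shock, cold-shock relatives, kinases and regulators, extracellular CIRBP receptors, and markers of T cell, B cell, NK cell, monocyte, neutrophil, erythroid, platelet and cardiac muscle) and tests were chosen with earlier results of these data known. Named were both members, up to 4 members of a list with the smallest adjusted p among those past the threshold, and the 5 genes most like each member with at least 10 counts in every rat. Rat 16, 17 and 22, Hsph1 levels, Sp1 and the receptors were singled out after their values were seen.

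Total counts of 19055610 to 40530330 a rat make sampling noise small for all but the lowest Cirbp counts. The spread between rats sets the precision. No 2 rats of a group agreed within sampling noise (lowest chi-square per gene 56.2), so none was counted as a repeat. P-values measure the spread between rats, since separate litters are not stated.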

Additional observations from a re-analysis of the deposited data

How the results depend on the processing

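Of 26 values for the pair, AMPH at 22.5 °C against 16 °C kept direction and call under every alternative for both genes, except among FG rats alone (Cirbp −2.17, Rbm3 −1.19, neither called). Cirbp in saline at 39 °C against AMPH at 16 °C was not called with library totals (−0.98), without project 2 (−1.28), 3 (−0.90), 5 (−0.88) or 7 (−1.02), or in FG (−1.62) or JB or ML rats (−0.45), and Rbm3 not in JB or ML rats (−1.16). In saline at 39 °C against AMPH at 22.5 °C the sign turned, never with a call. For Cirbp it was 0.0086 with DESeq2 size factors, 0.0047 with DESeq2, 0.029 with all rats kept, 0.43 with the hemoglobin covariate, 0.058, 0.34 and 0.018 without project 1, 10 or 5, 0.69 in JB or ML rats and 0.13 in the fit over all groups. For Rbm3 it was 0.0045, 0.0039 and 0.42 with DESeq2 size factors, DESeq2 and the hemoglobin covariate, 0.034, 0.27, 0.22 and 0.027 without project 14, 1, 10 or 5, and 0.79 in JB or ML rats. By permutation with library totals these were −0.38 and −0.40. AMPH against saline at 22.5 °C was called for Cirbp without the project over 22 AMPH rats (−1.48) and in the fit over all groups (−1.47), and without single rats ranged from −1.89 to −1.26 by edgeR and from −2.04 to −1.55 by permutation (p from 0.018 to 0.11). Saline at 39 °C against 22.5 °C was called without the project (−1.54 and −1.12). Rbm3 in saline at 16 °C against 22.5 °C turned with library totals (−0.51), without the project (−0.19) and without saline rat 21 (−0.061), and without single rats ranged from −0.061 to 0.27. The cause of these changes was not tested.

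With library totals the median log2 fold change of all genes, which was −0.039 to 0.0073 with TMM in these comparisons, was 0.14 (AMPH groups), −0.42 (saline at 39 °C against AMPH at 22.5 °C), −0.41 (AMPH against saline at 22.5 °C), −0.72 and −0.60 (saline at 39 and 16 °C against 22.5 °C) and −0.42 (interaction). Genes called ranged over the alternatives from 0 to 2418 (1924 as reported) between the AMPH groups, 141 to 3393 (1513) in saline at 39 °C against AMPH at 16 °C, 0 to 526 (16) against AMPH at 22.5 °C, 506 to 2166 (1226) and 0 to 2140 (402) against saline at 16 and 22.5 °C, 0 to 1072 (0) for AMPH at 22.5 °C, 0 to 116 (0) for AMPH at 16 °C, 0 to 68 (1) between the cool and standard saline groups and 0 to 72 (0) for the interaction. By the rule used, that every pair correlates above 0.1, replicate numbers did not pair the rats. Between the AMPH groups 3 of 13 same-numbered pairs had deviations correlated above 0.1, and 1 of 13 rats correlated best with its own number. A replicate block gave −1.59 for Cirbp and −1.25 for Rbm3 between the AMPH groups and changed no call for either gene where it could be fitted, while genes called moved to 2994 and 279 in saline at 39 °C against AMPH at 16 and 22.5 °C and to 116 in AMPH against saline at 16 °C. In AMPH against saline at 22.5 °C 3 of 4 pairs were above 0.1 and 3 of 4 rats correlated best with their own number. Low Cirbp counts, down to 24 in 1 rat, limit the lowest values at 39 °C.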
